A study of Mus musculus with 4 samples.

Results

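The genes described here are 10 members of the retinoic acid pathway, taken from the deposited table by their symbols: the receptors Rara, Rarb, Rarg, Rxra and Rxrb, the synthesis enzymes Aldh1a1 and Aldh1a2, the breakdown enzymes Cyp26a1 and Cyp26b1, and the binding protein Crabp1. All 10 were present among the 36088 genes of the table. RNA had been sequenced from wild-type (WT) mouse male germ cells that were sorted out of cultured fetal testes, in a series on the role of serine metabolism in the differentiation of these cells. One group was cultured with the solvent DMSO and the other with CBR-5884, which the labels call a serine metabolism inhibitor and which is known as an inhibitor of the enzyme Phgdh. Each group had 2 libraries, named biological replicates by the submitters, and the titles give day 14 without saying from when it was counted. Neither the dose of CBR-5884 nor the age of the fetuses nor the sorting marker is given in the sources used here. Libraries are named by condition and by the number in the table, 2 or 4.

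Retinoic acid is made from retinol in a pair of oxidation steps, the last of which is carried out by the Aldh1a enzymes. In the cell it is held by Crabp proteins and degraded by Cyp26 enzymes. In the nucleus it acts through a retinoic acid receptor (RAR) paired with a retinoid X receptor (RXR) on response elements in the DNA. In the fetal testis, Cyp26b1 of the somatic cells is known to keep retinoic acid away from germ cells and so to hold back meiosis; after birth retinoic acid starts the differentiation of spermatogonia, and Stra8 is its best known target in germ cells.

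The classical response element is DR5, a direct repeat of a short receptor-binding unit with a 5-base spacer. RefSeq promoter windows on GRCm38.p6, from 250 bases before to 50 after a transcript start, were found for all 10 genes (17 windows). DR5 was searched on both strands, each unit being A or G, then G, then G or T, then TCA. Of the 10 genes, 2 held it, Rarb and Cyp26a1. Across 27025 genes with a window, 31 did (0.115%). The members were chosen for this pathway, and both genes are known to be induced by retinoic acid. The 2 of 10 is thus no test of the list against all genes. The related repeats DR1 and DR2, with spacers of 1 and 2 bases, were in 0 of the 17 windows, against 0.222% and 0.268% of all 32851 windows. Both DR5 promoters are shown because they belong to receptor and breakdown genes that retinoic acid itself is known to induce, and because these genes were among the 3 least abundant members in the libraries. Each stretch is the 100 bases before the start, 5′ to 3′ on the gene's strand, with the repeat units in capitals. The Rarb stretch lies at chr14:16575477-16575576 (minus strand) and the Cyp26a1 stretch at chr19:37697708-37697807 (plus strand).
Rarb: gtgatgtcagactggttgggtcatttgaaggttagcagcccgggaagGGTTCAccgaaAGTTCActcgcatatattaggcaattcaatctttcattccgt
Cyp26a1: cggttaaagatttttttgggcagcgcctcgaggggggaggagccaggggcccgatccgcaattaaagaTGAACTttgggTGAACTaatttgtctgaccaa
In Rarb the element sits 53 to 37 bases before the start and reads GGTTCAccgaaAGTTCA along the gene. In Cyp26a1 it sits 32 to 16 bases before the start on the opposite strand, where it reads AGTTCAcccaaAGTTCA. Read on its own strand, each element thus has the same unit at the downstream position of the repeat, and the upstream units are not identical. A match in the window is a description of the sequence and was not tied to binding in these cells.

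The libraries held an estimated 22400000 to 28200000 reads and between 22100 and 22988 genes above 0 TPM (a transcript level per length and per library total). Germ cell markers were high throughout, with a summed level of 2425 to 2531 TPM over 10 genes. Markers of Sertoli cells, the somatic support cells of the testis, were also present. Their sum over 13 genes was 171 TPM in DMSO library 2, 90.2 in DMSO library 4, 140 in CBR-5884 library 2 and 122 in CBR-5884 library 4, so both DMSO libraries lay outside the CBR-5884 pair. Leydig cell markers summed to 8.70 to 13.9 TPM (7 genes), interstitial and peritubular markers to 49.7 to 59.3 TPM (9 genes), and endothelial and blood cell markers to 11.7 to 19.8 TPM (6 genes). Rhox5 was the 1 somatic marker listed at 0 in every library.

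No member passed the test between CBR-5884 and DMSO. Of the 10 genes, 9 had a mean of at least 1 TPM and entered the limma test on log2(TPM + 1). Of these, 0 had a Benjamini-Hochberg adjusted p under 0.05, where 0% of all 14920 tested genes did, and 0 had an unadjusted p under 0.05, where 3.66% of all tested genes did. The limma adjusted p was 0.998 for each of the 9. Fold changes were negative for 7 of them, with a median of −0.09, against 52.8% negative and a median of −0.01 over all tested genes; the members' median was −0.15 when CBR-5884 library 2 was left out. The groups did not overlap for 6 of the 9, lower with CBR-5884 for Crabp1, Rarg, Rxra, Cyp26a1 and Cyp26b1 and higher for Aldh1a2. Over all tested genes 31.3% did not overlap, 17.7% lower and 13.6% higher. With library totals made equal, Rarg overlapped and 5 of 9 remained apart, and the shares over all genes became 13.6% lower and 17% higher. The share of negative fold changes over all tested genes also depended on this scaling. With equal totals it was 45.9% with a median of 0.01, and the members had 7 of 9 negative with a median of −0.06.

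Crabp1 stood first at 244 TPM over the 4 libraries, 3.34 times the next gene and above 95.4% of tested genes. Rxrb, Rxra and Aldh1a2 came next by mean, in that order in all 4 libraries. Aldh1a2 also lay above Rara and Rarg in each library. Aldh1a1 had a range, 23.8 to 42.9 TPM, that overlapped those of Rxra, Aldh1a2, Rara and Rarg. Rara and Rarg overlapped, so their order was not fixed beyond the spread between libraries. Below Rarg came a step of 15.2 times down to Cyp26a1. Cyp26a1 and Cyp26b1 overlapped, and the range of Rarb lay below that of Cyp26b1.

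**Figure D1:**
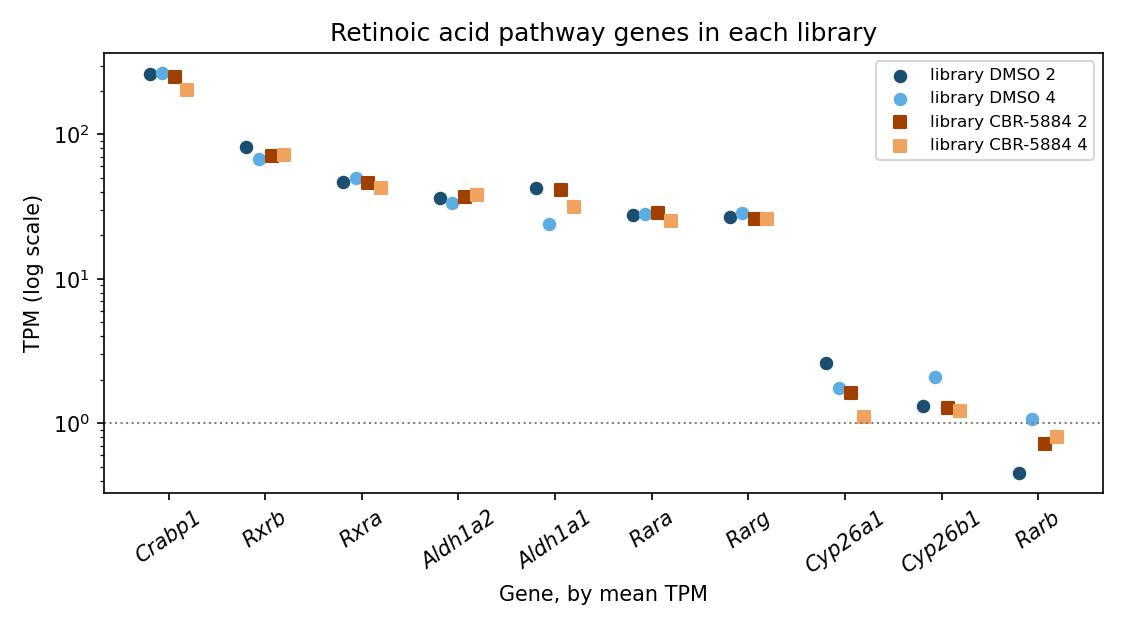
TPM of the 10 genes in each library on a log axis, ordered by mean TPM; circles are DMSO libraries, squares CBR-5884 libraries, and the dotted line marks 1 TPM. Crabp1 lies between 202 and 266 TPM, while Cyp26a1, Cyp26b1 and Rarb stay at or below 2.59 TPM in each library.

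The RAR genes encode the receptors that bind retinoic acid and switch target genes. Rara, known for its role in both Sertoli and germ cells (chr11:98927818-98974942), had 27.7 and 28.3 TPM in DMSO libraries 2 and 4 and 28.7 and 25.1 TPM in CBR-5884 libraries 2 and 4. CBR-5884 library 4 was lowest and CBR-5884 library 2 highest, so the groups overlapped. The log2 fold change was −0.06 (SE 0.12), with a 95% interval of −0.35 to 0.23, or 0.783 to 1.18 times on the scale of TPM + 1.

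Rarg, the receptor known from differentiating spermatogonia (chr15:102234938-102257517), had 27.0 and 28.5 TPM in the DMSO pair and 26.0 and 26.2 TPM with CBR-5884. Both CBR-5884 libraries lay below both DMSO libraries by a small step (log2 fold change −0.09, 95% interval −0.36 to 0.18); leaving out DMSO library 4 gave −0.05. Rara and Rarg were thus present at nearly equal levels, and Rara made up 48.2 to 51.8% of the summed RAR TPM in the 4 libraries.

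Rarb, the receptor gene with DR5 shown above (chr14:16430839-16819156), was the least abundant member. It had 0.454 and 1.07 TPM in DMSO cultures and 0.723 and 0.807 TPM with CBR-5884. Both extremes were DMSO libraries. Rarb supplied 0.823 to 1.84% of the RAR TPM, and its mean of 0.762 TPM kept it out of the test. With no filter on low values its log2 fold change was 0.03 (SE 0.24; 95% interval −0.62 to 0.68). Its level is uncertain: Rarb overlaps Top2b, a topoisomerase gene on the opposite strand at 22.4 TPM, and 32.1% of the 31-base words of Rarb transcripts also occur in Top2b transcripts.

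RXR genes encode the partners that RARs need to bind DNA, and both members were more abundant than any RAR gene. Rxrb (chr17:34031812-34038399) had 81.5 and 67.7 TPM under DMSO and 71.3 and 71.7 TPM with CBR-5884. The CBR-5884 values lay between the DMSO values (log2 fold change −0.05, 95% interval −0.32 to 0.21). Rxra (chr2:27676440-27762957) had 47.2 and 50.1 TPM in the DMSO pair and 45.8 and 42.5 TPM with CBR-5884. Its groups did not overlap, CBR-5884 being lower (log2 fold change −0.14, SE 0.10; 95% interval −0.37 to 0.10), and leaving out CBR-5884 library 4 gave −0.08.

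The summed TPM of Rxra and Rxrb was 2.03 to 2.33 times the summed TPM of the RAR genes. These ratios overlapped between the groups, with means of 2.18 for DMSO and 2.15 for CBR-5884. Rxrg, the remaining RXR gene, had a mean of 1.11 TPM in DMSO cultures and 1.22 TPM with CBR-5884.

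The synthesis enzymes Aldh1a1 and Aldh1a2 oxidise retinaldehyde to retinoic acid, and they had close mean levels but unlike patterns. Aldh1a2 (chr9:71215789-71296243) had 36.4 and 33.7 TPM under DMSO and 36.8 and 37.8 TPM with CBR-5884. It was the 1 member with both CBR-5884 libraries above both DMSO libraries (log2 fold change 0.09, 95% interval −0.16 to 0.34). Leaving out DMSO library 4 gave 0.03, and leaving out DMSO library 2 gave 0.14. An estimated 1421 to 1944 reads per library stood behind it.

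Aldh1a1 (chr19:20492715-20643465), which is known from Sertoli cells, had 42.9 and 23.8 TPM in the DMSO pair and 41.2 and 31.7 TPM with CBR-5884. The DMSO libraries were the highest and the lowest of the 4, a spread of 1.80 times, and the fold change had the widest interval among the members above 10 TPM (0.17, SE 0.28; 95% interval −0.51 to 0.84). Its sign turned negative when DMSO library 4 (−0.24) or CBR-5884 library 2 (−0.02) was left out. Leaving out DMSO library 2 gave 0.58, at an unadjusted p under 0.05 and a limma adjusted p of 0.704.

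The order of the libraries by Aldh1a1, DMSO 2, CBR-5884 2, CBR-5884 4 and DMSO 4 from high to low, was also the order for 8 of the 10 Sertoli cell markers with a mean of at least 1 TPM: Sox9, Amh, Dhh, Wt1, Inha, Inhbb, Cldn11 and Kitl. Gata4 and Ptgds had other orders. Gata4 had 11.2 and 11.7 TPM in DMSO libraries 2 and 4 and 9.61 and 8.97 TPM in CBR-5884 libraries 2 and 4. Over all tested genes 6.32% had the order of Aldh1a1. Amh, the hormone of Sertoli cells, had 38.5, 29.6, 26.5 and 16.6 TPM in that order of libraries. Per 100 TPM of summed Sertoli markers, Aldh1a1 had 25.0 and 26.4 TPM in DMSO libraries 2 and 4 and 29.4 and 26.0 TPM in CBR-5884 libraries 2 and 4. For Aldh1a2 the same ratio ran from 21.3 to 37.4 TPM. Interstitial and peritubular markers shared the order in 3 of 7 genes and germ cell markers in 2 of 10. The part of Sertoli cell RNA in the Aldh1a1 values was not tested, and in bulk samples fewer cells of a type and less RNA per cell cannot be told apart. Aldh1a1 shares 5.70% of its 31-base words with its neighbouring paralog Aldh1a7, which was at 0.517 TPM.

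**Figure D2:**
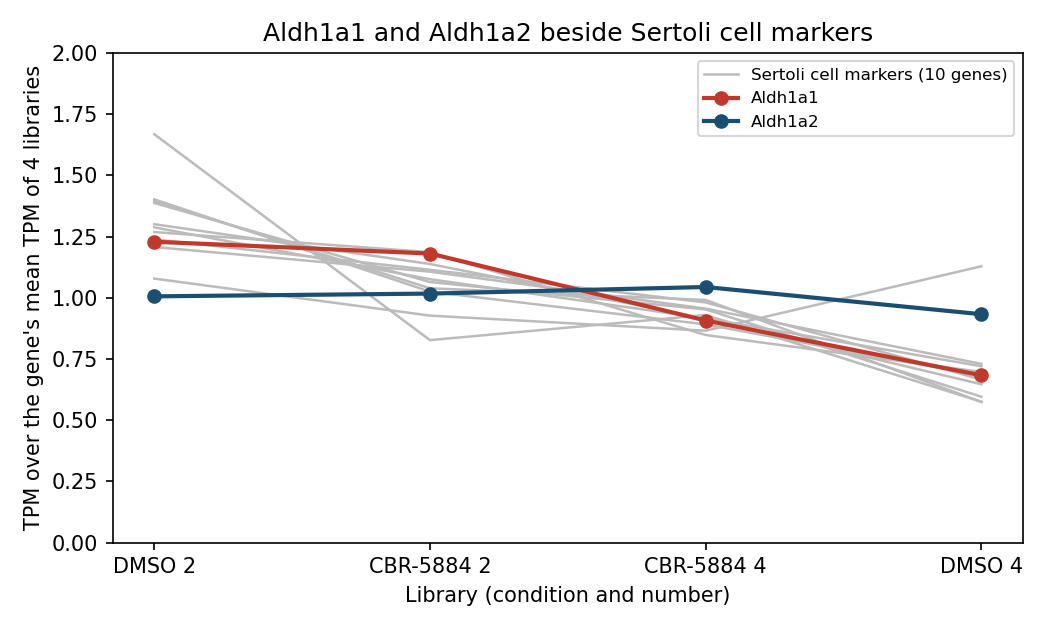
TPM of Aldh1a1, Aldh1a2 and 10 Sertoli cell markers in each library, divided by each gene's mean over the 4 libraries; the libraries are placed by their Aldh1a1 level and lines join the values of 1 gene. Aldh1a1 goes from 42.9 TPM in DMSO library 2 to 23.8 TPM in DMSO library 4 together with most grey marker lines, while Aldh1a2 stays between 33.7 and 37.8 TPM.

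Cyp26 enzymes oxidise retinoic acid and so end its action, and both members were scarce in these sorted cells. Cyp26a1 (chr19:37697798-37701536), the enzyme gene with DR5 in its promoter, had 2.59 and 1.75 TPM in DMSO cultures and 1.61 and 1.11 TPM with CBR-5884. Both CBR-5884 libraries lay below both DMSO libraries. The log2 fold change was −0.42 (SE 0.30), with a 95% interval from −1.16 to 0.32. Leaving out DMSO library 2 gave −0.23, leaving out CBR-5884 library 4 gave −0.27, and a pseudocount of 0.1 gave −0.63.

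Cyp26b1 (chr6:84571414-84593908), the enzyme known from the fetal testis, had 1.31 and 2.08 TPM under DMSO and 1.27 and 1.21 TPM with CBR-5884. DMSO library 4 stood above the other libraries, which lay close together, and without it the log2 fold change went from −0.25 to −0.04. Leaving out DMSO library 2 gave −0.46. The summed TPM of Cyp26a1 and Cyp26b1 was 3.90 and 3.83 with DMSO and 2.88 and 2.32 with CBR-5884. The sum was closer between the DMSO libraries than either gene, since the genes differed there in opposite directions. With each gene lower in both CBR-5884 libraries, the sum had to be lower as well. The interval of Cyp26b1, −0.99 to 0.49, was nearly as wide as that of Cyp26a1.

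Crabp1 (chr9:54764748-54773110) encodes a cytosolic protein that binds retinoic acid, and was the most abundant member. It had 260 and 266 TPM in the DMSO pair and 249 and 202 TPM with CBR-5884, resting on an estimated 3309 to 4470 reads per library. Both CBR-5884 libraries were below both DMSO libraries, CBR-5884 library 4 by the larger step. The log2 fold change was −0.23 (SE 0.11; 95% interval −0.50 to 0.04). Leaving out CBR-5884 library 4 gave −0.08. Leaving out CBR-5884 library 2 gave −0.38, at an unadjusted p under 0.05 but, like all other genes in that fit, short of the adjusted threshold.

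Crabp2, its paralog, had 4.41 and 3.40 TPM in DMSO cultures and 5.04 and 3.85 TPM with CBR-5884, so that Crabp1 exceeded it by 49.4 to 78.3 times. Among the other genes of binding and breakdown, Fabp5, a fatty acid binding protein that can also carry retinoic acid, had the highest mean at 9.69 TPM, and Cyp26c1 had 0.266 TPM and was not tested. In this list 0 of the 2 tested genes had an unadjusted p under 0.05 (limma), and 1 fold change was negative.

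**Figure D3:**
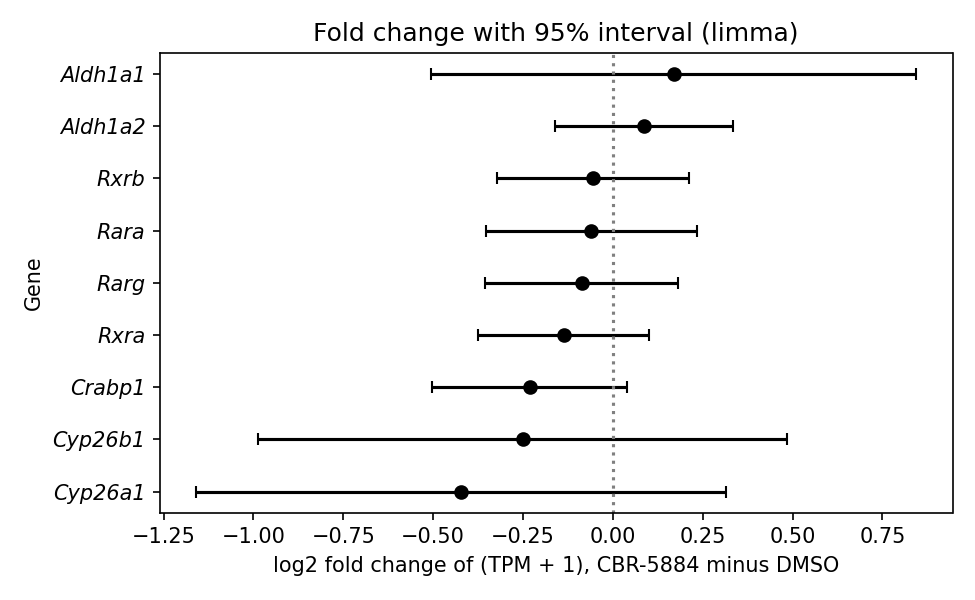
Log2 fold change of TPM + 1 between CBR-5884 and DMSO for the 9 tested genes, with 95% intervals from limma as bars. Each interval includes 0; the widest belong to Cyp26a1, Cyp26b1 and Aldh1a1.

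The list of retinol uptake, storage and oxidation is not confined to steps upstream of the Aldh1a step, since it also holds Aldh1a3, Aldh1a7 and Aldh8a1. Its genes were mostly low, with a median level of 1.93 TPM. Of 24 genes, 14 were tested and 0 passed the limma test after adjustment. Over all tested genes 3.66% were under an unadjusted limma p of 0.05, and in this list 1 was. That gene was Dgat1, an acyltransferase of triglyceride synthesis that can also esterify retinol, with 70.5 and 71.4 TPM under DMSO and 62.4 and 59.6 TPM with CBR-5884 (log2 fold change −0.22, 95% interval −0.42 to −0.01; limma adjusted p = 0.998). It was under that unadjusted level in 4 of 11 alternatives, and in 0 of 4 fits that each dropped 1 library. Fold changes were negative for 11 and positive for 3 of the 14, with a median of −0.18, where 52.8% of all tested genes were negative. The groups did not overlap for 6 (5 lower, 1 higher), against 31.3% of all tested genes (17.7% lower, 13.6% higher). The median was −0.12 when CBR-5884 library 4 was left out and −0.12 with no filter. Adh5, a widely expressed alcohol dehydrogenase, had the highest mean at 166 TPM. Aldh1a3, the remaining enzyme of the Aldh1a step, had means of 6.87 and 6.28 TPM, below Aldh1a1 and Aldh1a2.

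Among genes known to respond to retinoic acid, 10 of 13 were tested. Of these, 0 passed at an adjusted p under 0.05 and 1, Stra8, had an unadjusted p under 0.05 (limma). The share of all tested genes at that unadjusted level was 3.66%. Fold changes were negative for 7 of the 10, with a median of −0.19, where 52.8% of all tested genes were negative. They were positive for Meiosin (0.03), Hoxb1 (0.23) and Meis2 (0.12). The groups were apart for 4, against 31.3% of all tested genes. Each of the 4 was lower with CBR-5884, where 17.7% of all tested genes were apart and lower (13.6% with equal library totals). The median was −0.35 when DMSO library 4 was left out and −0.12 with no filter. Stra8 had 476 and 399 TPM in the DMSO pair and 376 and 323 TPM with CBR-5884 (log2 fold change −0.32, 95% interval −0.61 to −0.03; limma adjusted p = 0.998). It was under that unadjusted level in 7 of 11 alternatives and in 2 of 4 fits that each dropped 1 library, and not when DMSO library 2 or CBR-5884 library 4 was left out. Rec8, a meiotic cohesin subunit, had 56.3 and 50.8 TPM in DMSO cultures and 40.1 and 47.6 TPM with CBR-5884 (log2 fold change −0.29, 95% interval −0.58 to 0.01). Kit, a growth factor receptor of differentiating spermatogonia, had 70.0 and 111 TPM under DMSO and 62.2 and 82.4 TPM with CBR-5884, and its groups overlapped. Stra6 and Dhrs3 belong to this list and to the list of retinol genes.

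Of 12 receptor cofactors, all tested, 0 passed at an adjusted p under 0.05 and 1, Crebbp, had an unadjusted p under 0.05 (limma). The share of all tested genes at that unadjusted level was 3.66%. Crebbp, a histone acetyltransferase, had 113 and 113 TPM in the DMSO pair and 100.2 and 94.4 TPM with CBR-5884 (log2 fold change −0.21, 95% interval −0.40 to −0.02; limma adjusted p = 0.998), and was under that unadjusted level in 6 of 11 alternatives and in 0 of 4 fits that each dropped 1 library. Fold changes were negative for 8, where 52.8% of all tested genes were negative. The groups did not overlap for 5 (3 lower, 2 higher), against 31.3% of all tested genes (17.7% lower, 13.6% higher). The list's median was −0.03. It was −0.08 when DMSO library 2, −0.02 when CBR-5884 library 2 and −0.06 when CBR-5884 library 4 was left out. With equal library totals the median was −0.004 and 7 of 12 fold changes were negative, where 45.9% of all tested genes were negative.

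**Figure D4:**
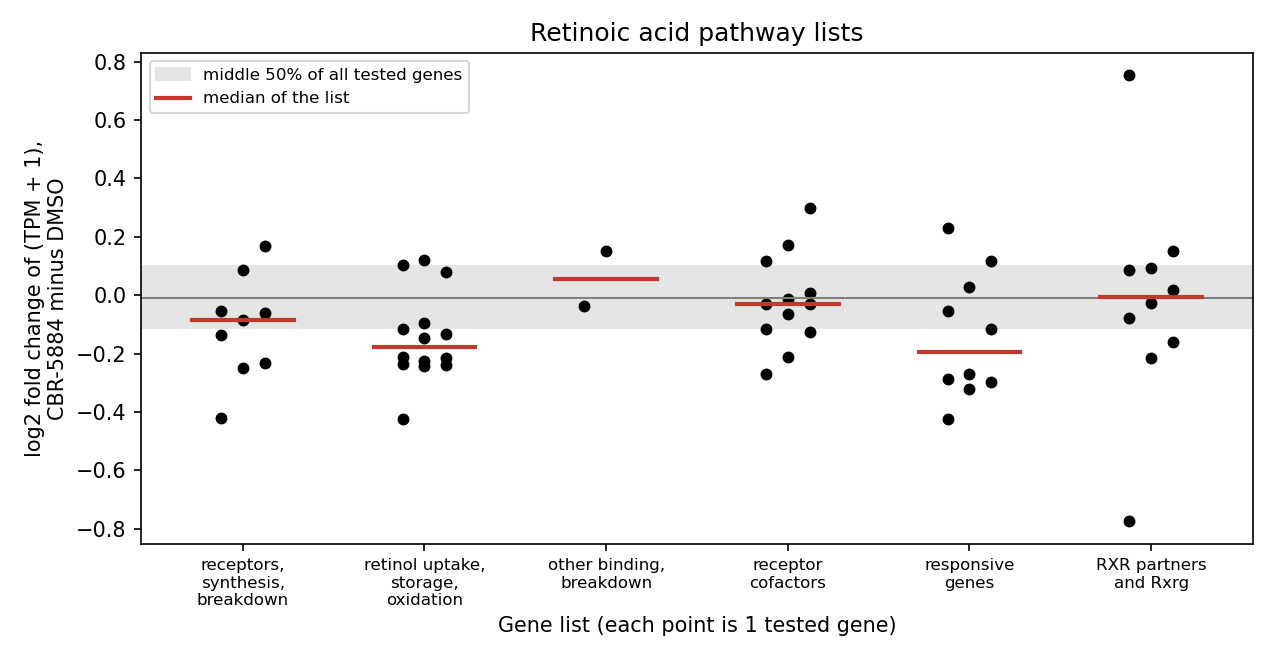
Log2 fold change of TPM + 1 between CBR-5884 and DMSO for each tested gene of 6 lists, with the list's median as a red bar; the grey band is the middle 50% of all tested genes (−0.11 to 0.10) and the grey line their median. The medians of the retinol list (−0.18) and of the responsive genes (−0.19) lie below the band with all 4 libraries, and the other 4 lie within it.

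By pattern over the 4 libraries, the tested genes most like Rara among 9538 with a mean of at least 10 TPM were Tmed3, Ndufb2 and Rps15, at Euclidean distances of 0.01 to 0.02 between centred log2(TPM + 1) values. Those most like Cyp26b1 were Cpne5, Pofut1 and Pias3, at 0.02 to 0.04. With 4 libraries such likeness is a description of these libraries.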

How the data were processed

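The deposited table has 469612 lines, 1 per transcript and library, for 36088 genes. The submitters' processing notes name fastp and kallisto with mm10, without version or setting. Per the file headers it holds TPM and scaled reads per base, both gene-level signal values by the authors, each repeated on the lines of a gene's transcripts; 1 line per gene and library was kept. The deposited TPM signal summed to 966761 to 1002976 per library. The step between low scaled reads of genes with 1 transcript gave the estimated reads per library; 35.4 to 36.3% of values under 20.5 steps were whole within 0.05, so no count test was run. Read estimates are printed only for genes with 1 transcript, and intervals come from the spread between libraries.

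The test fixed for values that are not counts was limma 3.58.1 (limma-trend, R 4.3.3), two-sided, on log2(TPM + 1) over 14920 genes with a mean of at least 1 TPM, with no covariate and Benjamini-Hochberg adjustment. A run on simulated data with independent noise checked only that set fold changes were recovered. It is no measure of error rates in these libraries. An exact permutation test of 2 against 2 libraries cannot go below p = 0.33. Fold changes on this scale understate those of low genes. Alternatives were another pseudocount (0.1), no filter, a minimum of 5 TPM, equal library totals, scaled reads, no variance trend, a replicate block and leaving out each library. The members and lists were chosen with earlier results of these data known. Named genes were all members, list genes with an unadjusted p under 0.05, the most abundant gene of each list (for the receptor cofactors it is not reported here), Stra8, Rec8 and Kit; others serve as paralogs or marker examples, and Rhox5, Rxrg, Aldh1a3, Pparg and Vdr were chosen after their values were seen. The table numbers libraries 2 and 4 and the labels number replicates 1 and 2, so which labelled replicate each library is remains unknown. Gene positions and 31-base words come from GENCODE M21 on GRCm38 (mm10), 1-based; whether counting used the strand is not stated.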

Additional observations from a re-analysis of the deposited data

How the results depend on the processing

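For the 9 tested members, 93 of 97 fold changes under the alternatives kept their direction and stayed short of the threshold. Changing the filter, dropping the variance trend or adding the replicate block cannot alter a fold change. Kept directions under these settings were thus fixed in advance. The exceptions each came from leaving out a library. Over the fits that left out 1 library, the log2 fold change of Rara ranged from −0.15 to 0.034 (positive when CBR-5884 library 4 was left out). That of Rxrb ranged from −0.19 to 0.077 (positive when DMSO library 2 was left out). That of Aldh1a1 ranged from −0.24 to 0.58 (−0.24 when DMSO library 4 and −0.02 when CBR-5884 library 2 was left out). The cause was not tested. The number of members called was 0 under each alternative. Over all genes it was 0 under each except scaled reads in place of TPM, which called 1; genes at an unadjusted p under 0.05 went from 546 (3.66%) to 1034 (6.93%) when DMSO library 2 was dropped and 393 (2.63%) when CBR-5884 library 4 was dropped, and with no filter were 1079 of 26138 (4.13%). With the replicate block, by the number in the library name, 0 members and 0 genes were called and 797 genes had an unadjusted p under 0.05; same-numbered libraries deviated together with a correlation of 0.20 across genes, and the numbers are not known to mark a shared source. The number of members with groups apart, 6, was 5 with equal totals and 6 with scaled reads, settings chosen after seeing the data. Negative fold changes numbered 6 to 8 of 9 when 1 library was left out. The 95% intervals limit what could be seen: they spanned −1.16 to 0.32 for Cyp26a1 at 1.77 TPM, −0.51 to 0.84 for Aldh1a1 at 34.9 TPM and −0.35 to 0.23 for Rara at 27.5 TPM.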

Other observations

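Other nuclear receptors that pair with RXR were mostly scarce. Of 14 genes in this list, Rxrg included, 10 were tested; 0 had an adjusted and 0 an unadjusted p under 0.05 (limma), and 5 fold changes were negative (median −0.00). The median was 0.02 with equal library totals and, when DMSO library 4 was left out, −0.13 with 7 of 10 negative. Nr1h2, a sterol receptor, had the highest mean at 92.9 TPM, above Rxra and Rxrb. The groups did not overlap for 2 of the 10 tested genes (1 lower, 1 higher), against 31.3% of all tested genes (17.7% lower, 13.6% higher). They were Pparg and Vdr, which had the lowest and the highest fold change of the list. Pparg, a fatty acid receptor, had 3.55 and 2.86 TPM with DMSO and 2.34 and 0.796 TPM with CBR-5884 (log2 fold change −0.77, SE 0.37). Vdr, the vitamin D receptor, had 0.846 and 0.317 TPM with DMSO and 1.66 and 1.60 TPM with CBR-5884 (log2 fold change 0.75, SE 0.33), also apart. With a DMSO mean of 0.581 TPM, Vdr reached the filter of 1 TPM only through the CBR-5884 libraries (mean over all libraries 1.10 TPM). Its difference is thus not independent of its entry into the test. The limma adjusted p was 0.998 for both, and Pparg was under an unadjusted p of 0.05 in 2 and Vdr in 3 of the alternatives.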
